A study of Gallus gallus with 48 samples.

Results

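KRT14 (ENSGALG00000023855) and KRT19 (ENSGALG00000019719) are 2 type I keratin genes of the chicken, described here across 48 RNA-seq libraries of 4 tissues. They were taken, among the 17108 genes of the expression table, as the rows whose identifier is paired with these symbols in a supplementary gene list of the study. That list names 1182 genes of the table, 5 of them keratins. Both genes were chosen by their fitted altitude differences, KRT14 by that in lung and KRT19 by that in brain, so the altitude differences of both genes in these tissues are given as descriptions, without a test.

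The libraries came from brain, heart, liver and lung, with 12 libraries per tissue in 4 groups of 3. Of the groups kept at 3300 m, TC were Tibetan and HLC lowland chickens, and of those kept at 670 m, LTC were Tibetan and LC lowland chickens. No source used here spells out HLC and LTC, which were read from their prefix and from the altitude in the labels. Breed within each type, sex, age and time spent at altitude are not given, and altitude cannot be told apart from the location, the diet or the sampling day. Whether each library stands for 1 bird is not stated, and the p-values therefore measure the spread between libraries, which may be technical.

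Keratins are the intermediate filament proteins of epithelial cells. They form filaments as pairs of a type I and a type II chain, and both genes here encode type I chains. In mammals KRT14 marks the basal layer of stratified epithelia and the basal cells of airways, where it pairs with KRT5. In mammals KRT19 is a short keratin of simple epithelia and is a common marker of bile ducts and of the lining of airways and glands. In bulk tissue, fewer epithelial cells and less keratin RNA per cell cannot be told apart. In the RefSeq annotation of the GRCg7b assembly both genes lie in the type I keratin cluster, with KRT10, KRT9 and genes without a name between them. There KRT19 is listed as a synonym of KRT24, KRT15 as a synonym of KRT13 and KRT20 as a synonym of KRT40. The name KRT19 used here rests on the supplementary gene list, and the mammalian role of KRT19 may not carry over to this chicken gene. Reads shared between keratins of this cluster could have been split between them by the counting, so the level of each is uncertain to that extent.

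The values are FPKM, fragments scaled by transcript length and by the mapped fragments of the library. Levels of different genes can therefore be compared. The sums of FPKM per library lay between 452395 and 896066, and 8498 to 11325 genes per library had at least 1 FPKM. Low values were taken as whole multiples of the worth of 1 fragment, and their ratios between libraries gave the relative depth. That worth ranged from 0.784 to 1.29 of the median library. ACTN2, FABP1 and SLC17A6 matched the labelled tissues, but not every gene of the marker lists did. ACTN2, an actin crosslinker of muscle, was at 393 to 935 FPKM in heart, and FABP1, a fatty acid binding protein of hepatocytes, at 3277 to 16058 FPKM in liver. SLC17A6, a glutamate transporter of neurons, was at 94.8 to 147 FPKM in brain. Of the hepatocyte list, OTC was at 0 FPKM in every liver library. The mitochondrial carrier SLC25A47 of that list was at 8.29 to 17.4 FPKM in brain and 1.09 to 22.6 FPKM in liver. No marker that defines lung had a symbol. The lung library HLC replicate 3 held 31.8 FPKM of ACTN2, against 0.0213 to 1.38 FPKM in the other 11 lung libraries.

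Both genes had their highest level in lung. KRT19 was at 53.6 FPKM in lung (median of 12 libraries, range 20.6 to 83.7), 3.71 in brain (1.20 to 8.48), 2.24 in liver (1.19 to 5.83) and 1.13 in heart (0.0582 to 2.45). KRT14 was at 3.60 FPKM in lung (0.590 to 6.71), 0.933 in brain (0.399 to 4.88), 0.778 in heart (0.162 to 1.54) and 0.0745 in liver (0 to 0.223). The lung libraries of KRT19 lay above all 36 libraries of the other tissues, whereas those of KRT14 overlapped brain and heart. How many of all genes separate lung in this way was not counted. KRT19 made up 89.6% of the summed FPKM of the 5 named keratins in lung (median, range 78.5% to 92.5%) and 44.1% in brain. Within a lung library there was 6.09 to 44.4 times as much KRT19 as KRT14 (median 20.3), and in brain 1.05 to 9.23 times (median 3.46).

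**Figure D1:**
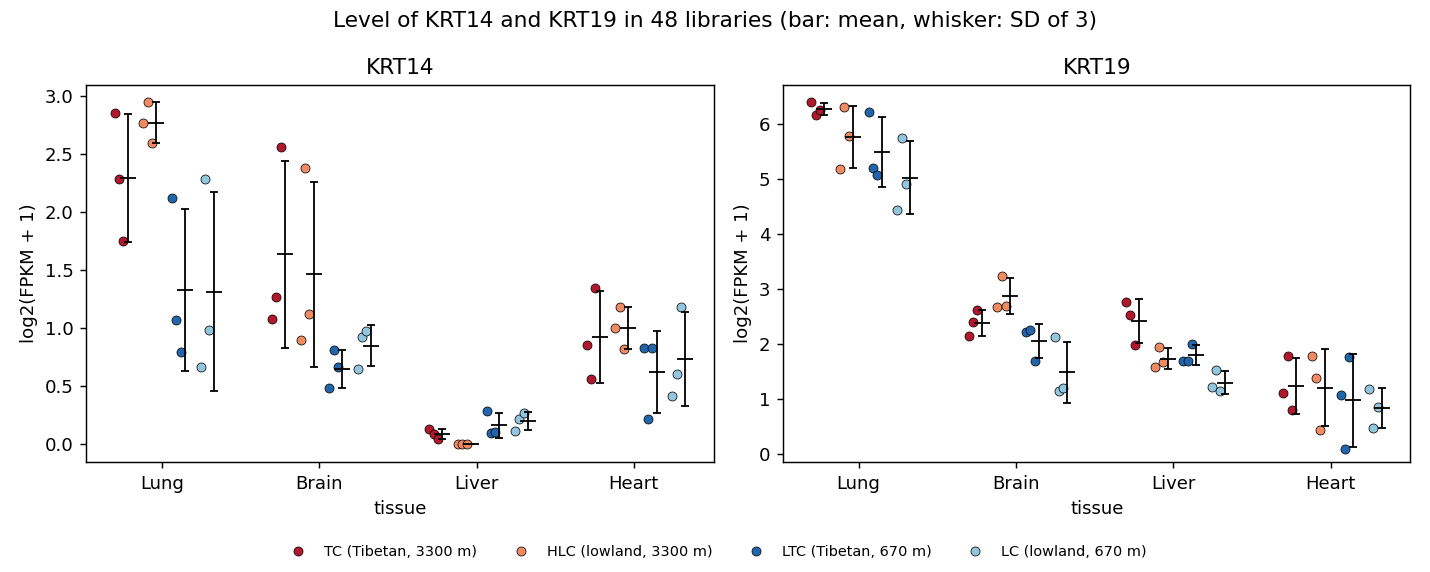
Levels of KRT14 (left) and KRT19 (right) as log2(FPKM + 1) in the 4 tissues, with 1 point per library, a bar for the mean and a whisker for the SD of the 3 libraries of each group. KRT19 is at 20.6 to 83.7 FPKM in lung and at most 8.48 FPKM in the other tissues, and KRT14 is at or near 0 in liver.

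Tissue pairs were compared by limma over all 48 libraries and 13353 genes on the log2(FPKM + 1) scale, with p-values adjusted by the Benjamini-Hochberg method over the genes of each pair. The fit takes the 48 libraries as independent, although no source says whether libraries of different tissues share a bird, and of 72 correlations between libraries of the same group and number in different tissues 70 were above 0 (median 0.13). KRT19 in lung exceeded brain by a log2 difference of 3.45 (SE 0.19, adjusted p = 2.8e-19), liver by 3.83 (adjusted p = 1.1e-20) and heart by 4.59 (adjusted p = 8.9e-23). KRT14 in lung exceeded brain by 0.78 (SE 0.18, adjusted p = 0.00017), liver by 1.81 (adjusted p = 1.1e-11) and heart by 1.10 (adjusted p = 7.3e-07). Such calls were common. In these pairs 83.9% (lung and brain), 86.6% (lung and liver) and 83.9% (lung and heart) of all genes passed, and the median log2 difference of all genes was 0.18, 0.80 and 0.69. After quantile normalization the difference of KRT14 between lung and heart was 0.33 (adjusted p = 0.086).

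The lower places in the order were less firm. KRT19 in brain did not pass against liver (0.39, SE 0.19, adjusted p = 0.052, and 0.055 with group and replicate number as a block across tissues, with 85.7% of genes called), and the sign turned with upper quartile scaling (-0.18) and with quantile normalization (-0.52, adjusted p = 0.019). KRT14 in brain did not pass against heart (0.33, adjusted p = 0.092, with 80% of genes called), and the sign also turned with quantile normalization (-0.36, adjusted p = 0.054). KRT19 was higher in brain than in heart (1.14, adjusted p = 8.1e-07), although not after quantile normalization (0.40, adjusted p = 0.067), and higher in liver than in heart (0.75, adjusted p = 0.00044, with 72.2% of genes called). KRT14 was higher in brain than in liver (1.03, adjusted p = 2.3e-06) and lower in liver than in heart (-0.71, adjusted p = 0.00065). With a pseudocount of 0.1 in place of 1 the difference of KRT14 between lung and liver was 3.96, between brain and liver 2.82 and between liver and heart -2.25, since the fold change of a gene near 0 is held down by the pseudocount.

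KRT14 in liver was at the limit of detection. It was at 0.0979, 0.0665 and 0.0347 FPKM in TC, 0 in all 3 HLC libraries, 0.223, 0.0721 and 0.0770 FPKM in LTC and 0.0836, 0.167 and 0.206 FPKM in LC. After scaling for relative depth the 9 values above 0 fell within 0.15 of whole multiples of 0.0353 FPKM, a step fitted to these same values, and so stood for 1 to 6 fragments each. At this step 3 fragments, the number that a count of 0 allows, come to 0.106 FPKM in the median library. KRT14 in liver was below the level set for testing, which was 1 FPKM in at least 3 of the 12 libraries of a tissue, and no difference was tested there. The same step puts KRT14 at 14.5 to 199.7 fragments per library in lung (median 87.9), 11.7 to 151 in brain (median 26.3) and 4.19 to 45.6 in heart (median 23.7). The levels of KRT14 in brain and heart therefore rest on few fragments. Such estimates cover counting error only.

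In lung, KRT14 stood at 6.20, 3.87 and 2.36 FPKM in TC and 5.82, 6.71 and 5.03 FPKM in HLC. At 670 m it stood at 3.34, 1.10 and 0.737 FPKM in LTC and 0.590, 3.88 and 0.985 FPKM in LC. The 3 HLC libraries and 1 TC library, 4 of the 6 at 3300 m, were above every library at 670 m, and 4 of 6 libraries at 670 m were below every library at 3300 m. The overlap came from LTC replicate 1 and LC replicate 2, which were 3.34 and 3.88 FPKM. Group means were 4.14 ± 1.94 FPKM in TC, 5.85 ± 0.838 in HLC, 1.73 ± 1.41 in LTC and 1.82 ± 1.80 in LC (SD, n = 3 each). The fitted log2 difference between 3300 m and 670 m was 1.21 (SE 0.31), made up of 0.97 (SE 0.44) in Tibetan and 1.45 (SE 0.44) in lowland chickens. With each library left out in turn the difference was 1.05 to 1.45. In this contrast, which served to choose KRT14, 17.1% of the 11601 lung genes passed the threshold (5.57% higher and 11.6% lower at 3300 m), with a median of -0.04.

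KRT19 in lung stood at 83.7, 71.5 and 76.0 FPKM in TC and 35.4, 78.8 and 54.5 FPKM in HLC. At 670 m it stood at 74.0, 35.8 and 32.7 FPKM in LTC and 20.6, 52.7 and 29.2 FPKM in LC. The same 2 libraries, LTC replicate 1 and LC replicate 2, were the highest of their groups for both keratins. TC libraries were the tightest group (77.1 ± 6.18 FPKM), against 56.2 ± 21.7 in HLC, 47.5 ± 23.0 in LTC and 34.2 ± 16.6 in LC (SD, n = 3 each). The log2 difference between the altitudes was 0.76 (SE 0.27), of 0.78 in Tibetan and 0.73 in lowland chickens (SE 0.38 each). With each library left out in turn it was 0.61 to 0.94, and the value in lowland chickens was 0.44 without LC replicate 1 and 0.46 without HLC replicate 2. LTC replicate 1 lay within the range of TC, and 3 of 6 libraries at 3300 m were above all 6 at 670 m.

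**Figure D2:**
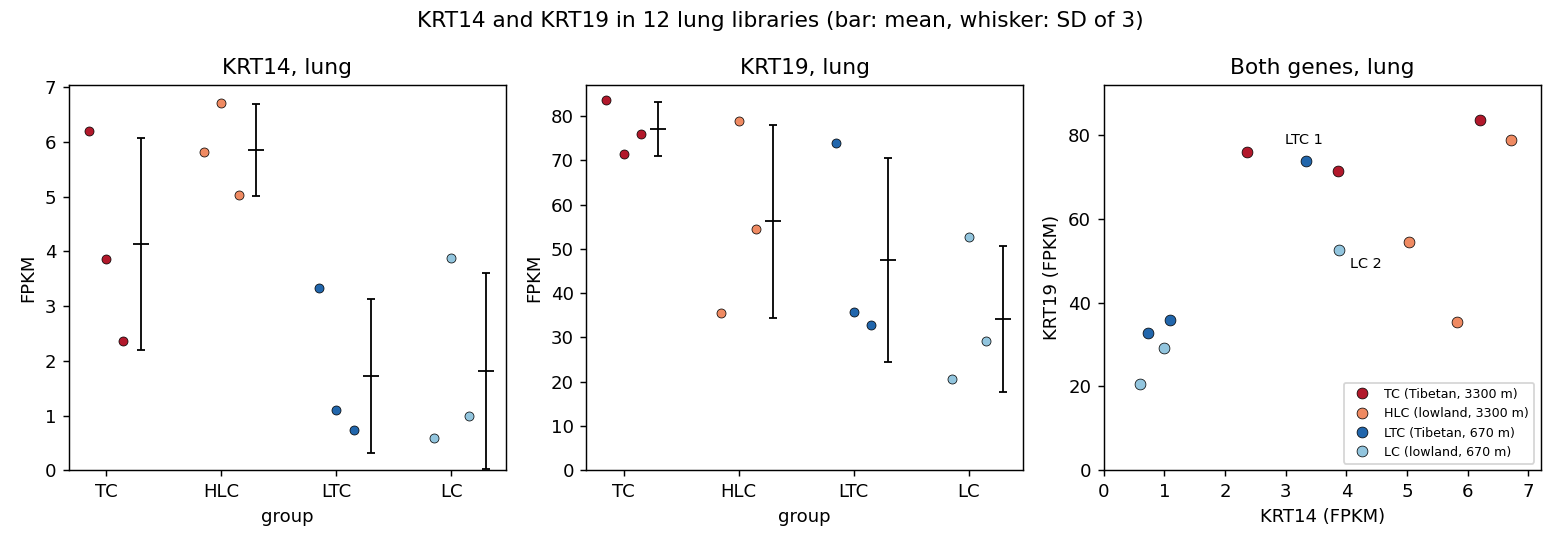
KRT14 and KRT19 in the 12 lung libraries in FPKM by group (left and middle, with the mean and SD of 3 libraries beside the points), and KRT19 plotted against KRT14 in the same libraries (right). The labelled libraries LTC 1 and LC 2 have 3.34 and 3.88 FPKM of KRT14, within the range at 3300 m, and are the highest of their groups for both genes.

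Tibetan and lowland lungs were not shown to differ in either keratin. KRT19 had a log2 difference of 0.49 for Tibetan minus lowland chickens (SE 0.27, limma adjusted p = 0.41) and KRT14 one of -0.23 (SE 0.31, adjusted p = 0.76), in a contrast in which 0.0431% of genes were called. For KRT19, 1 of 6 Tibetan libraries was above all lowland libraries, and 2 of 6 lowland libraries were below all Tibetan ones. The altitude difference was not shown to differ between the types in KRT14 (-0.49, SE 0.62, adjusted p = 0.77) or KRT19 (0.05, SE 0.54, adjusted p = 0.98), with 0.509% of genes called.

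Other genes of epithelia showed where the 2 keratins stood in these lungs. Of the 17 genes of an epithelial list 8 had a symbol and 6 could be tested in lung. None of the 6 passed for altitude in limma (none at an unadjusted p under 0.05), where 17.1% of all lung genes passed. At an unadjusted p under 0.05 stood 3883 of all 11601 lung genes. Of the 6 genes, 5 were above 0, and the median was 0.15, against -0.04 for all genes. Their values were 0.31 for P-cadherin (CDH3), 0.29 for the epithelial transcription factor ELF3, 0.21 for E-cadherin (CDH1), 0.09 for the splicing regulator ESRP2, 0.08 for the transcription factor EHF and -0.07 for the tight junction protein MARVELD3. None of the 6 passed for type either (median 0.26, 3 at an unadjusted p under 0.05), where 0.0431% of all genes passed. For type, 1709 of all 11601 lung genes stood at an unadjusted p under 0.05. For MARVELD3 the type difference was 0.58 (SE 0.14). Its lung libraries with at least 1 FPKM were all Tibetan, so it could enter the fit only through that type. The summary of the 6 genes for type includes it. GRHL3 and CLDN8, the other 2 genes of the list with a symbol, were not tested in lung. The remaining named keratins were low in lung. KRT15, a type I keratin of basal cells in mammals, was at 2.16, 1.71 and 1.34 FPKM in TC and 1.15, 0.910 and 0.529 FPKM in HLC, against 0.986, 0.536 and 0.417 FPKM in LTC and 0.537, 1.21 and 0.420 FPKM in LC. Its TC libraries were the highest 3 of the 12. Of the LTC and LC libraries, only LC replicate 2 reached 1 FPKM, so KRT15 could enter the fit only through TC and HLC. Its altitude difference of 0.43 (SE 0.16) is therefore given without a test. KRT20, a keratin of the gut lining in mammals, had a difference of 0.34 (SE 0.18, adjusted p = 0.22). KRT9, found in the skin of palms and soles in mammals, stayed under 1 FPKM in all 12 lung libraries and was not tested.

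Levels of the marker lists in lung stand beside these values. The summed FPKM of the 8 epithelial genes was 81.0 to 181 at 3300 m and 52.2 to 133 at 670 m. For the 6 genes of ciliated cells it was 3.17 to 15.4 at 3300 m and 1.48 to 13.0 at 670 m, with none of 4 tested genes past the threshold. For the 6 neuron genes it was 10.9 to 24.6 at 3300 m and 24.1 to 68.1 at 670 m. Of these 3 were tested, and STMN2, a microtubule regulator of neurons, was the 1 that passed (-2.18, limma adjusted p = 0.0013). STMN2 alone was at 5.68 to 17.0 FPKM at 3300 m and 14.3 to 61.9 FPKM at 670 m. The neuron gene TUBB3 was at 1.76 to 9.15 FPKM at 3300 m and 1.34 to 5.32 FPKM at 670 m. Of all lung genes 17.1% passed for altitude. The part of these cell types in the keratin values was not tested.

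KRT14 and KRT19 varied together over the 12 lung libraries (Pearson r = 0.74, Spearman rho = 0.71, and r = 0.56 without the 2 libraries farthest from the KRT19 median). Such values describe 12 points that share their groups and libraries, so the altitude difference itself enters them. Among 11600 other genes tested in lung, KRT14 ranked 119th and KRT15 154th in likeness to KRT19 (r = 0.72 for KRT15). Among genes with a symbol these came after DDT, a tautomerase related to the cytokine MIF (r = 0.81), and AZI2, an adaptor of innate immune signalling (r = 0.81), and before CLIC3, an intracellular chloride channel protein (r = 0.71). Without the 2 outermost libraries these 3 stood at 0.59, 0.87 and 0.46. Among the genes with a symbol most like KRT14 in lung were the zinc finger protein HIVEP2 (r = 0.95, rho = 0.90, the fifth of all genes), the mitochondrial iron importer SLC25A37 (r = 0.91), the immune ligand HHLA2 (r = 0.91) and the Ras exchange factor SOS1 (r = 0.90). Their r stayed between 0.85 and 0.93 without the 2 outermost libraries. KRT14 itself had r = 0.69 with ELF3, 0.68 with CDH1, 0.66 with CDH3, 0.37 with ESRP2, 0.28 with EHF and -0.03 with MARVELD3. Without the 2 libraries farthest from the KRT14 median these stood at 0.61, 0.54, 0.50, 0.09, -0.01 and -0.10.

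In brain, KRT19 stood at 3.41, 4.27 and 5.15 FPKM in TC and 5.37, 8.48 and 5.45 FPKM in HLC. At 670 m it stood at 3.68, 3.74 and 2.24 FPKM in LTC and 3.37, 1.20 and 1.28 FPKM in LC. The HLC libraries were the highest 3 of the 12 and LC held the lowest 2, while TC and LTC overlapped. Of the libraries at 3300 m, 5 of 6 were above all at 670 m. The log2 difference between the altitudes was 0.86 (SE 0.19), with 0.33 (SE 0.27) in Tibetan and 1.38 (SE 0.27) in lowland chickens, in a contrast that served to choose the gene and in which 2.26% of 11614 genes passed. The value in Tibetan chickens was 0.15 without LTC replicate 3 and 0.21 without TC replicate 3. In the contrast of the altitude difference between the types, 751 of 11614 brain genes had an unadjusted p under 0.05. The difference between the types was tested apart from the choice and did not pass after adjustment (-1.05, SE 0.39, unadjusted p = 0.019, limma adjusted p = 0.75, with 0.0344% of genes called). It lay between -1.38 and -0.87 with each library left out in turn, with adjusted p of 0.30 to 1.00.

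KRT14 in brain was low and uneven. It stood at 1.11, 1.41 and 4.88 FPKM in TC and 0.861, 4.19 and 1.18 FPKM in HLC. At 670 m it stood at 0.399, 0.752 and 0.584 FPKM in LTC and 0.565, 0.898 and 0.968 FPKM in LC. TC replicate 3 and HLC replicate 2 held 4.88 and 4.19 FPKM, and the other 10 libraries lay between 0.399 and 1.41 FPKM. The log2 difference between the altitudes was 0.80 (SE 0.29), with 0.98 in Tibetan and 0.62 in lowland chickens (SE 0.41 each). It was 0.52 in Tibetan chickens without TC replicate 3 and 0.16 in lowland chickens without HLC replicate 2. Every brain library with at least 1 FPKM of KRT14 was at 3300 m, so the gene entered the fit through that altitude alone. HLC replicate 2 was also the highest brain library for KRT19 (8.48 FPKM) and for CDH3 (5.75 FPKM, against 1.38 to 3.77 in the other 11).

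Between the types, neither gene was shown to differ in brain (KRT19 0.04, SE 0.19, limma adjusted p = 1.00, and KRT14 -0.01, SE 0.29, adjusted p = 1.00, with 0.00861% of genes called). The altitude difference of KRT14 was not shown to differ between the types either (0.37, SE 0.58, adjusted p = 0.86). KRT15 was at 0.567 to 3.07 FPKM and KRT20 at 0.891 to 2.98 FPKM in brain, and neither passed for altitude (0.04 and 0.09, adjusted p = 0.95 and 0.86). Of the epithelial list, CDH3 (0.46, adjusted p = 0.20) and the transcription factor GRHL3 (0.03, adjusted p = 0.95) were tested in brain and did not pass. ENPP2, which is known from the choroid plexus, was the 1 gene of 6 on that list with a symbol. In brain it was at 57.1 to 103 FPKM at 3300 m and 31.5 to 50.1 FPKM at 670 m (0.70, limma adjusted p = 0.047, with 2.26% of genes called). This call was not rerun with other settings. ENPP2 was not particular to brain, at 9.97 to 125 FPKM in lung and 15.7 to 29.9 FPKM in liver. Its altitude difference in lung had the opposite sign (-1.48) but did not pass. Lung levels of ENPP2 were 9.97 to 37.5 FPKM at 3300 m and 13.0 to 125 FPKM at 670 m. The part of ENPP2 in the KRT19 values was not tested. The genes with a symbol most like KRT19 over the 12 brain libraries were the arginine methyltransferase PRMT3 (r = 0.84, rho = 0.90), the potassium channel KCNK2 (r = 0.84, rho = 0.66), PLXDC2 (r = 0.79), the nicotinic receptor subunit CHRNA7 (r = 0.78) and the actin regulator EPS8 (r = 0.78). PRMT3 ranked 23rd among 11613 genes.

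The altitude differences in liver and heart did not serve to choose the genes, but earlier results of these data were known. No source says whether the livers came from the birds whose brains served to choose KRT19. In the fit reported, liver KRT19 was higher at 3300 m and in Tibetan chickens, although neither call held in every alternative. It stood at 5.83, 4.74 and 2.96 FPKM in TC and 1.98, 2.84 and 2.17 FPKM in HLC. At 670 m it stood at 2.24, 2.24 and 3.02 FPKM in LTC and 1.33, 1.88 and 1.19 FPKM in LC. The group means were 4.51 ± 1.45 FPKM in TC, 2.33 ± 0.453 in HLC, 2.50 ± 0.447 in LTC and 1.47 ± 0.363 in LC (SD, n = 3 each). TC was thus the highest and LC the lowest group, and 4 of 6 Tibetan libraries were above all lowland ones, with 5 of 6 lowland libraries below all Tibetan ones. For altitude 2 of 6 libraries at 3300 m were above all at 670 m.

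The log2 difference of KRT19 in liver between 3300 m and 670 m was 0.53 (SE 0.14, limma adjusted p = 0.0092). In this contrast 51.3% of 9944 genes passed, with 9.74% higher and 41.6% lower, and the median of all genes was -0.25. The sign of KRT19 was thus opposite to that of the median gene. After quantile normalization the difference was 0.86 (adjusted p = 0.0012). The call was kept with each library left out in turn (adjusted p of 0.0019 to 0.025), but was lost when all 48 libraries shared 1 estimate of the spread (adjusted p = 0.11). The altitude difference was 0.63 in Tibetan chickens (adjusted p = 0.022, with 50.7% of genes called) and 0.43 in lowland chickens (adjusted p = 0.16, with 16.6% called). A difference between these 2 values was not detected (0.19, SE 0.28, adjusted p = 0.67, with 14% of genes called). The call in Tibetan chickens was lost without TC replicate 1 (adjusted p = 0.086), TC replicate 2, LTC replicate 1 or LTC replicate 2, and in the fit of all 48 libraries (adjusted p = 0.20), and the value was 1.11 after quantile normalization (adjusted p = 0.0025).

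For Tibetan minus lowland chickens the difference of KRT19 in liver was 0.60 (SE 0.14, limma adjusted p = 0.026), where 11% of genes passed, with 2.39% higher and 8.58% lower, and the median was -0.10. The call was lost without any of HLC replicate 3, LC replicate 3, LTC replicate 2, LTC replicate 3 and TC replicate 2 (adjusted p of 0.050 to 0.063) and in the fit of all 48 libraries (adjusted p = 0.16). Between TC and HLC at 3300 m it was 0.70 (adjusted p = 0.022, with 31.3% of genes called), lost without HLC replicate 1, HLC replicate 3, TC replicate 1 or TC replicate 2 (adjusted p up to 0.077) and in the fit of all 48 libraries (adjusted p = 0.19). Between LTC and LC at 670 m it was 0.51 (adjusted p = 0.48, with 0.0402% called). For altitude 51.3% of all liver genes passed, with 9.74% higher and 41.6% lower. Of 5 hepatocyte genes tested in liver, 2 were higher at 3300 m (FABP1 0.87, adjusted p = 0.00026, and FTCD, an enzyme of histidine breakdown, 0.53, adjusted p = 0.011) and 2 were lower (the mitochondrial carrier SLC25A47 -1.59, adjusted p = 0.00045, and the plasma enzyme LCAT -0.80, adjusted p = 0.0072). FABP1 was at 13019 to 16058 FPKM in TC and 3277 to 4800 FPKM in the other 9 livers. SLC25A47 was at 1.09 to 2.90 FPKM in TC, 3.33 to 7.65 FPKM in HLC and 8.88 to 22.6 FPKM at 670 m. FTCD and LCAT did not set TC apart. FTCD was at 91.3 to 130 FPKM in TC and 64.2 to 103 FPKM in HLC, and LCAT at 79.6 to 92.8 and 90.7 to 147 FPKM. How many of all liver genes set TC apart was not counted. The part of these hepatocyte genes in the KRT19 values was not tested.

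**Figure D3:**
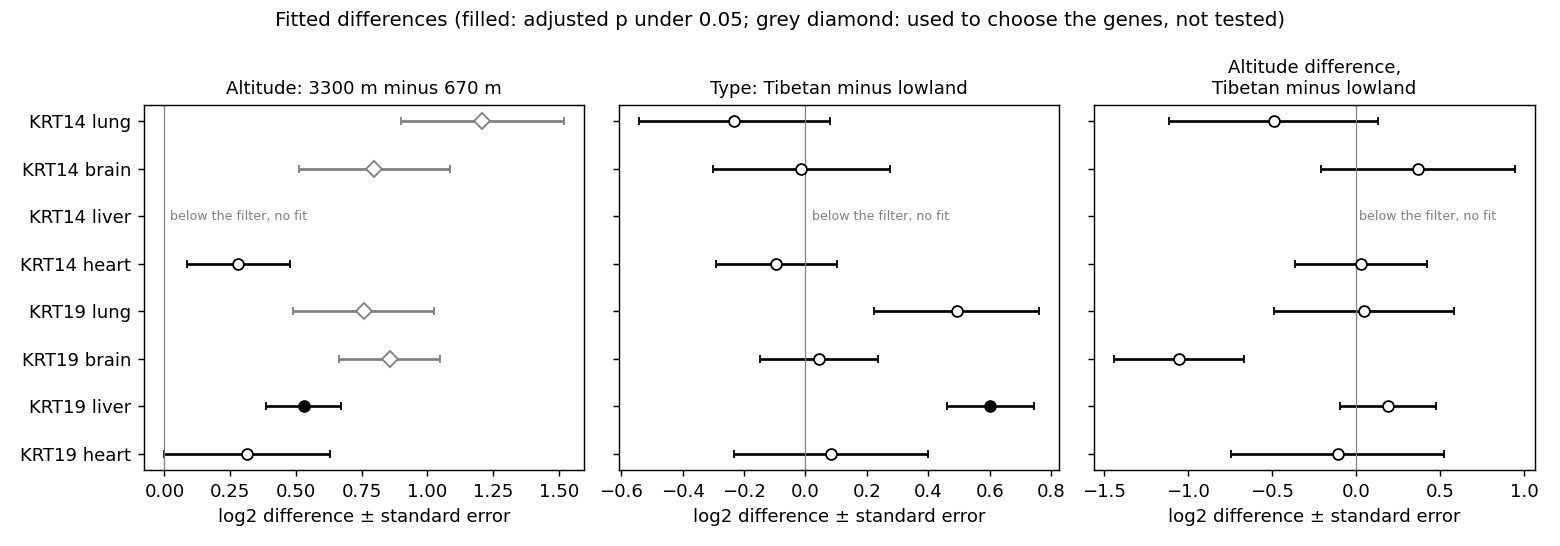
Fitted log2 differences with their standard errors for KRT14 and KRT19 in each tissue, for altitude (left), chicken type (middle) and the altitude difference of Tibetan minus that of lowland chickens (right). Filled points passed at an adjusted p under 0.05 (KRT19 in liver, 0.53 for altitude and 0.60 for type), and grey diamonds mark contrasts that served to choose the genes and were not tested. The open points of KRT14 in heart for altitude and type are given without a test.

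PKHD1, the fibrocystin gene of bile duct cilia, was at 0.446, 0.267 and 0.0849 FPKM in TC and 0.192, 0.597 and 0.928 FPKM in HLC, against 1.36, 1.25 and 1.00 FPKM in LTC and 1.08, 0.711 and 0.586 FPKM in LC. The TC libraries were below all 6 libraries at 670 m, while HLC overlapped LC. The libraries with at least 1 FPKM were all at 670 m, so PKHD1 could enter the fit only through the altitude at which it was higher, and its values are given without a test.

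Of 5 epithelial genes tested in liver, 2 were higher at 3300 m and 1 was lower, with a median of 0.20. Of all 9944 liver genes 51.3% passed for altitude, with 9.74% higher, 41.6% lower and a median of -0.25. ELF3 was at 1.70 to 3.79 FPKM at 3300 m and 1.05 to 1.60 FPKM at 670 m (0.63, SE 0.14, adjusted p = 0.0031), and MARVELD3 rose as well (0.55, adjusted p = 0.0045). The splicing regulator ESRP2 was lower (-1.10, adjusted p = 0.00091). CDH1 was lower in Tibetan than in lowland livers (-0.54, adjusted p = 0.011), the 1 gene of the 5 that passed for type, and opposite in sign to KRT19. For type 11% of all liver genes passed, with 8.58% lower. CDH3 passed in neither contrast (0.20 and -0.43, adjusted p = 0.30 and 0.087). These calls for ELF3, MARVELD3, ESRP2 and CDH1 were kept in all 17 alternatives run for them, both scalings included. The fit of all 48 libraries, which ended the liver calls of KRT19, and the replicate block were not among these. KRT9 was the other named keratin in the liver fit, at 0.368 to 1.26 FPKM. At 3300 m only TC replicate 3 reached 1 FPKM, so KRT9 could enter that fit only through 670 m. Its altitude difference of -0.19 is therefore given without a test. KRT15 reached 0.0989 FPKM and KRT20 0.923 FPKM at most. The part of epithelial cells in the KRT19 values of liver was not tested.

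**Figure D4:**
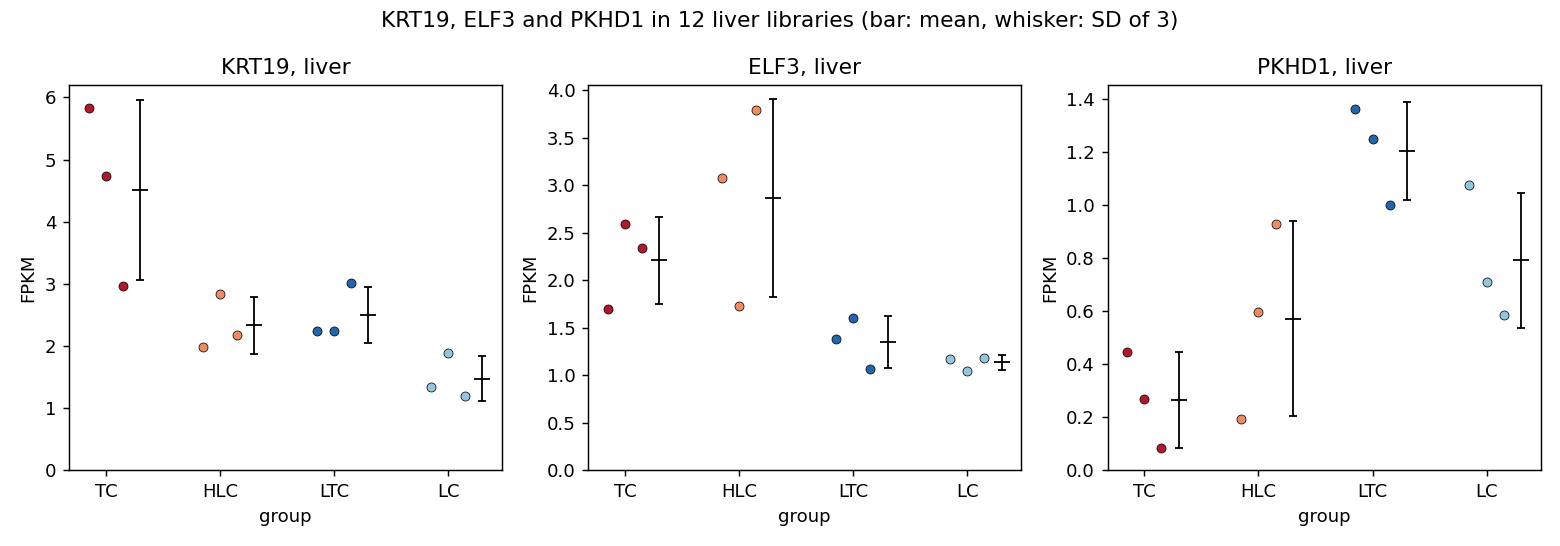
KRT19 (left), the epithelial transcription factor ELF3 (middle) and the bile duct gene PKHD1 (right) in FPKM in the 12 liver libraries, by group, with the mean and SD of 3 libraries beside the points. KRT19 is highest in TC (2.96 to 5.83 FPKM). ELF3 is at 1.70 to 3.79 FPKM at 3300 m and 1.05 to 1.60 FPKM at 670 m. The 4 libraries with at least 1 FPKM of PKHD1 are all at 670 m.

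In heart both keratins were low and none of the differences tested passed. KRT14 stood at 0.813, 0.479 and 1.54 FPKM in TC and 1.01, 1.27 and 0.765 FPKM in HLC. At 670 m it stood at 0.782, 0.162 and 0.774 FPKM in LTC and 0.333, 0.524 and 1.28 FPKM in LC. The ranges overlapped widely, with 1 of 6 libraries at 3300 m above all at 670 m. At 670 m only LC replicate 3 reached 1 FPKM, so KRT14 could enter the heart fit only through 3300 m. Its log2 difference between the altitudes of 0.28 (SE 0.20) is therefore given without a test.

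KRT19 in heart stood at 1.16, 2.45 and 0.731 FPKM in TC and 2.45, 1.62 and 0.343 FPKM in HLC, against 1.10, 0.0582 and 2.39 FPKM in LTC and 1.28, 0.384 and 0.793 FPKM in LC. The widest group was LTC, whose lowest library was the lowest and whose highest was the third of the 12. The log2 difference of KRT19 between the altitudes was 0.31 (SE 0.32, limma adjusted p = 0.98). In this contrast 0.0193% of 10376 heart genes passed. Between the types the difference of KRT19 was 0.08 (SE 0.32, adjusted p = 0.93), with 0.00964% of genes called. For KRT14 it was -0.10 (SE 0.20), given without a test. Of the Tibetan heart libraries only TC replicate 3 reached 1 FPKM of KRT14, so the gene could enter that fit only through lowland chickens. The altitude difference was not shown to differ between the types in KRT14 (0.03, SE 0.39, adjusted p = 0.96) or KRT19 (-0.11, SE 0.63, adjusted p = 0.92), with 2.79% of genes called. The other named keratins were lower still, with highest values of 0.477 FPKM for KRT15, 0.596 FPKM for KRT20 and 0.412 FPKM for KRT9. No gene of the epithelial list with a symbol reached the level set for testing in heart.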

How the data were processed

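Total RNA (TRIzol) went into libraries of an Illumina TruSeq kit. The submitters' notes name TopHat and Cufflinks 2.2.1 on galGal4; no source used here gives the annotation release or the options. The authors deposited FPKM per gene for 48 libraries, and all columns were used. The paper itself describes genome sequencing and no expression measurement. The members, the gene lists and the tests were chosen with earlier results of these data known.

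A gene entered the fit of a tissue when 3 or more of its 12 libraries reached 1 FPKM (3 of 48 for tissue pairs). On log2(FPKM + 1) values, limma 3.58.1 (R 4.3.3) estimated 1 mean per group, with a variance trend. The altitude difference sets both 3300 m groups (TC, HLC) against both 670 m groups (LTC, LC), the type difference sets TC and LTC against HLC and LC, and the interaction is TC minus LTC minus (HLC minus LC). Tests are 2-sided with a Benjamini-Hochberg adjusted p under 0.05 as the threshold. The fit was tested on simulated data.

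Relative depth came from the most common ratio between libraries among values under 0.15 FPKM; 84.3% of library pairs agreed within 5% with 1 worth per library. Symbols came from the supplementary gene list. Besides both members, the genes named are all other keratins with a symbol and the epithelial list. In lung, and for KRT19 in brain, the 5 genes with a symbol and the highest r were added. Genes named from the other cell type lists were picked after their values were seen. Of the genes so chosen, some are not reported here. Lists for surfactant cells, mesothelium and desmosomes had no gene with a symbol. In the heart muscle and hepatocyte lists 6 of 6 genes had one, as in the neuron list. The hepatocyte gene OTC was listed at 0 in liver. No sequence was used. Alternatives were a pseudocount of 0.1, no filter, a mean of at least 5 FPKM, quantile normalization, upper quartile scaling, no trend, all 48 libraries in 1 fit, the replicate number as a block, and each library left out.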

Additional observations from a re-analysis of the deposited data

How the results depend on the processing

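In liver, the fit of all 48 libraries ended the calls of KRT19 for altitude (0.53, adjusted p = 0.11) and type (0.60, adjusted p = 0.16), and the type difference was 0.52 to 0.71 with each library left out. Quantile normalization ended the call of KRT14 between lung and heart (0.33) and of KRT19 between brain and heart (0.40), and turned KRT14 between brain and heart (-0.36) and KRT19 between brain and liver (-0.52). Upper quartile scaling turned the last as well (-0.18). With single libraries left out, KRT19 between brain and liver was 0.31 to 0.43 (past the threshold without any of 20 libraries) and KRT14 between brain and heart was 0.21 to 0.40 (without any of 2).

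Some of the differences that never passed crossed 0 with single libraries left out, while others kept their sign, as did KRT19 for type in lung (0.31 to 0.67). For KRT14 the ranges were -0.24 to 0.21 (type, brain), -0.20 to 0.018 (type, heart), -0.43 to 0.011 (type, lung), -0.094 to 0.82 (interaction, brain) and -0.19 to 0.21 (interaction, heart). For KRT19 they were -0.043 to 0.21 (type, brain), -0.11 to 0.31 (type, heart), -0.31 to 0.41 (interaction, lung) and -0.55 to 0.29 (interaction, heart). The last was also 0.27 with a pseudocount of 0.1, 0.32 with quantile normalization and 0.11 with upper quartile scaling.

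Counts of all genes past the threshold ranged widely: for altitude 33 to 593 in brain (263 in the fit reported), 0 to 70 in heart (2), 2674 to 5507 in liver (5105) and 1160 to 2157 in lung (1986), for type 0 to 21 (1), 0 to 935 (1), 347 to 1596 (1091) and 0 to 265 (5), and for the interaction 0 to 38 (4), 0 to 2820 (289), 458 to 2001 (1390) and 9 to 218 (59), in the same order of tissues.

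The replicate number does not mark a shared bird or batch in any source, and not every same-number correlation was over 0.1. Within tissues, 1 of 24 pairs of groups (TC and LTC in brain, 0.37 to 0.45) had all 3 same-number correlations over 0.1. Across tissues, libraries of the same group and number gave 8 of 24 such cases (TC in lung and liver 0.24 to 0.29). Of the 72 correlations, 70 were above 0 (median 0.13). Whether birds or batches were shared was not tested. With the replicate block KRT19 in liver kept both calls (altitude 0.53, adjusted p = 0.014, and type 0.60, adjusted p = 0.039), and no call of KRT14 or KRT19 changed within tissues or between them. The count for altitude in brain was 76 with it. Without the filter, KRT14 in liver had an altitude difference of -0.14 (adjusted p = 0.017, and 0.76 in the fit of all 48 libraries), which rests on 0 to 6 fragments per library. With a mean of at least 5 FPKM required within a tissue, KRT19 in lung alone had a value.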
